A study of Homo sapiens with 20 samples.

Results

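Tripartite motif (TRIM) genes and PML, itself a TRIM protein, were described in m6A peak lists of T24 and T24R2 bladder cancer cells. The members were the protein-coding genes of the GENCODE 44 annotation (hg38) whose symbol is TRIM followed by a digit, plus PML. This gave 78 of 20046 protein-coding genes, of which 2 are read-through genes (TRIM6-TRIM34 and TRIM39-RPP21) that were not counted further. A row of a peak list belonged to a member when its summit lay in one of the member's exons, which held for 731 of 231465 rows in 10 lists. A gene with at least 1 such row is called marked here, which is a statement on peaks and not on expression.

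T24 is a human bladder cancer cell line sensitive to cisplatin, from which the resistant line T24R2 was derived by repeated exposure to the drug. Both are given as genotype WT, grown in RPMI with serum and taken at day 3, at confluence. The labels name no drug, but by the study's methods T24R2 was kept in medium containing cisplatin, and neither source says whether it was present at harvest. Each line has 5 immunoprecipitated (IP) libraries, made with an antibody against N6-methyladenosine, and 5 matching inputs, used here only through the peak calls made over them. T24R2 is 1 derived line, so resistance, cisplatin in the medium and any other difference between these cultures cannot be told apart, and the labels do not say that replicates are separate cultures, so p-values measure the spread between these libraries, which may be technical. In bulk RNA, fewer cells of a type and less RNA per cell cannot be told apart, and a peak that is not called may reflect less methylation or less transcript.

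Most TRIM proteins have an N-terminal RING finger, B-boxes and a coiled coil. The RING finger recruits an E2 enzyme loaded with ubiquitin, and the C-terminal domain usually selects the substrate. PML builds the nuclear bodies that collect SUMO-modified proteins and take part in antiviral and DNA damage responses. m6A is placed on mRNA by the METTL3-METTL14 methyltransferase within short motifs around a central A and C, often in long exons and near stop codons, where reader proteins bind it and change the stability or translation of the transcript.

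The windows below show what lies under the summits of regions on which the results turn. Each is 29 bases of the hg38 transcript (GENCODE 44), 5′ to 3′, centred on the A of the nearest DRACH motif within 50 nt of the strongest summit, with the motif in capitals. DRACH is any base but C, then A or G, then A, C, and any base but G, and a GGAC form was taken first where there was one. A match is a description of the letters and not a mapped methylation site. TRIM45 has the member region with the highest mean percentile (the rank of a row's fold enrichment within its own list, averaged over libraries), TRIM5 and TRIM6 are paralogs marked in exon 2 of 8, each 1371 nt before the stop codon, TRIM41 and TRIM33 are marked in all libraries, the PML and TRIM62 windows lie in regions called more often in T24R2, and the TRIM52 window lies in the member region with the smallest p in the comparison of enrichment.
TRIM45, chr1:117118407-117118435, minus strand: cagctgatgtccGGACAttctcggagggc
TRIM41, chr5:181224386-181224414, plus strand: ggaggaagacctGGACTactacttggggg
TRIM33, chr1:114397707-114397735, minus strand: tgaggtaactgaGGACTctgatgaagact
TRIM5, chr11:5680078-5680106, minus strand: acccctgagcctGGACTgcggccacagct
TRIM6, chr11:5603384-5603412, plus strand: acccctgagcatAGACTgtggccacagct
PML, chr15:74023034-74023062, plus strand: gcgcgcgtgccgAGACCgaggagctgatc
PML, chr15:74044520-74044548, plus strand: gccagcagcttcAAACTcaagaacctggc
TRIM62, chr1:33147131-33147159, minus strand: cacaacctcctgGGACCactgccacctgc
TRIM52, chr5:181257314-181257342, minus strand: attgcataaccaGGACAgttttattgttt

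The TRIM5 and TRIM6 windows agree at 26 of 29 positions. The substitutions, with the TRIM5 base first and positions counted from 1 at the 5′ end of the window, are C11A, G13A and C19T, and the second of them falls in the motif. A GGAC lay within 50 nt of the strongest summit in 46.5% of 101 member regions whose window was complete, against 48.3% of 21763 regions of protein-coding genes. On the opposite strand of the same windows the shares were 37.6% and 26.6%. For DRACH the shares were 87.1% and 88.8% on the transcript strand and 77.2% and 70.8% on the opposite strand. Each GGAC followed by A, C or T is also a DRACH, so the counts overlap. On the transcript strand the shares for TRIM peaks were thus within 2 percentage points of those for coding genes. On the opposite strand they were higher for TRIM peaks, so the strands differed less than for coding genes. This was not tested.

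Of the 76 members, 41 were marked in at least 1 library (53.9%), close to the 51.1% of all protein-coding genes. All 10 libraries marked 25 members (32.9%, against 27.5% of protein-coding genes). These were PML, TRIM2, TRIM3, TRIM5, TRIM7, TRIM8, TRIM11, TRIM13, TRIM21, TRIM24, TRIM25, TRIM26, TRIM32, TRIM33, TRIM36, TRIM38, TRIM41, TRIM44, TRIM45, TRIM52, TRIM56, TRIM59, TRIM65, TRIM68 and TRIM69. A further 4 (TRIM34, TRIM35, TRIM47, TRIM73) were marked in 8 or 9 libraries, 6 (TRIM4, TRIM6, TRIM14, TRIM16, TRIM62, TRIM66) in 4 to 7, and 6 (TRIM9, TRIM23, TRIM27, TRIM28, TRIM37, TRIM74) in 1 to 3. The 35 members without a row include the primate-expanded TRIM43, TRIM48, TRIM49, TRIM51 and TRIM64 genes, the muscle proteins TRIM54, TRIM55, TRIM63 and TRIM72, the interferon-induced TRIM22 and the basal epithelial TRIM29. The lists hold no expression level, so unexpressed and unmethylated transcripts cannot be told apart among them.

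**Figure D1:**
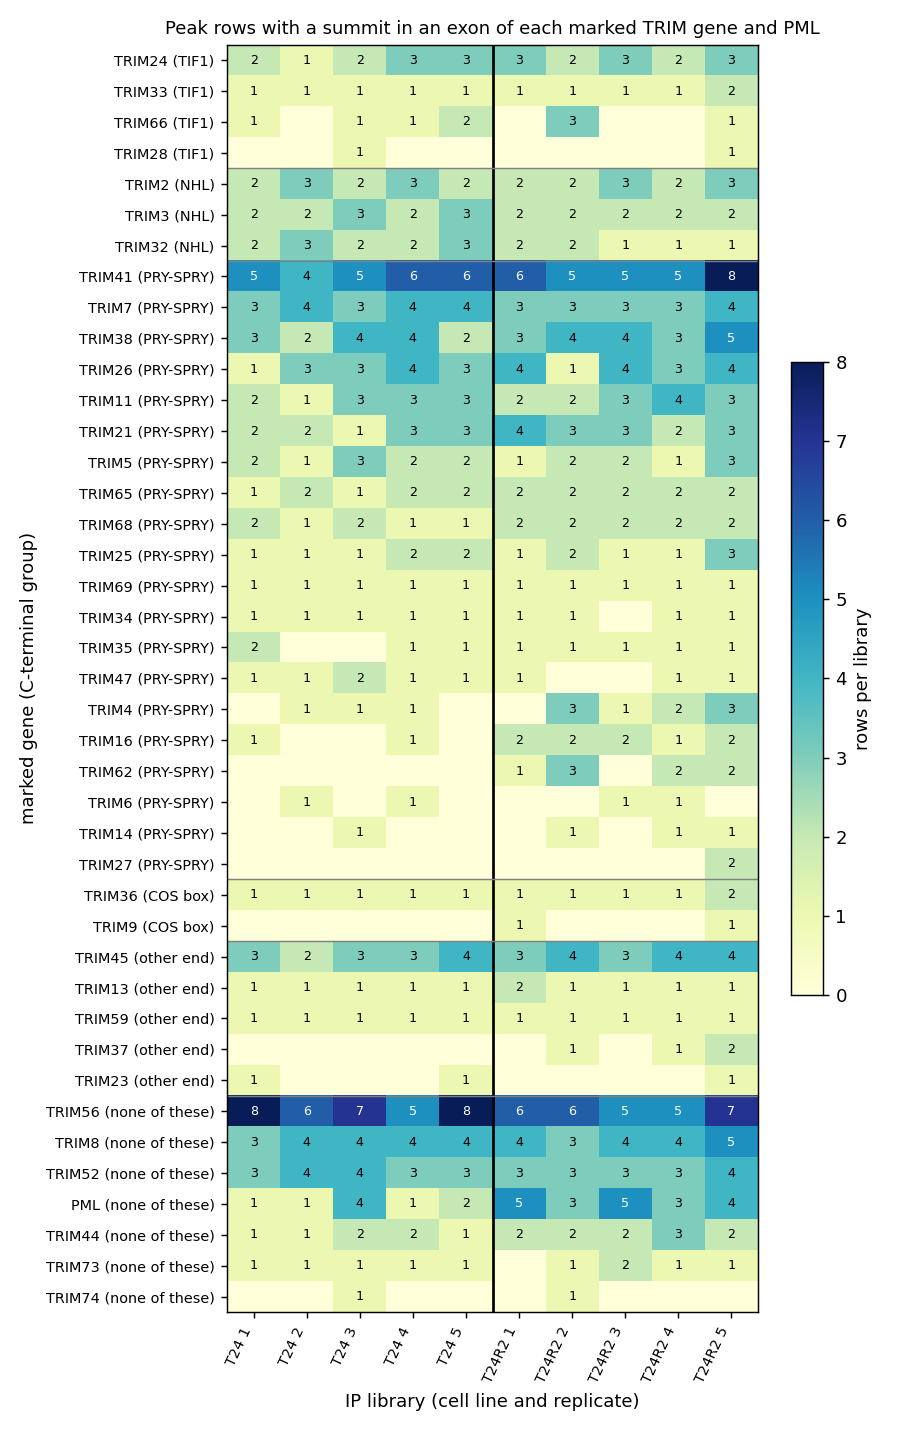
Number of peak rows (colour and printed count) with a summit in an exon of each of the 41 marked genes (vertical axis, with the C-terminal group) in each of the 10 IP libraries (horizontal axis; the line separates T24 from T24R2). TRIM56 and TRIM41 carry 4 to 8 rows in every library, while PML has 1 to 4 in T24 and 3 to 5 in T24R2.

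Each gene was put in 1 C-terminal group, so genes of the COS box group are not counted in the PRY-SPRY group, whatever their end. All 4 TIF1 genes were marked (PHD finger and bromodomain, readers of histone tails) and 3 of 4 NHL genes. In the PRY-SPRY group 20 of 45 were marked (44.4%), and in the microtubule-binding COS box group 2 of 8 (25.0%). All 5 with a MATH, ARF, filamin or transmembrane end were marked, and 7 of 10 with none of these, PML among them. Libraries held 67.6 ± 7.09 member rows for T24 and 78.6 ± 11.6 for T24R2 (SD, n = 5 per line), 11 rows apart (exact two-sided permutation p = 0.151, adjusted p = 0.189 over the 5 measures tested). Without T24R2 replicate 5, the longest list, the difference was 5.9 rows. T24R2 lists are longer, at 22671 to 33120 rows against 17203 to 22901, and member rows made up 0.331% ± 0.0195 of the T24 lists and 0.305% ± 0.0215 of the T24R2 lists (exact permutation p = 0.0714, adjusted 0.119). Member genes per library were 31.8 ± 1.3 and 34.0 ± 3.61 (exact permutation p = 0.302). With every list shortened to 17203 rows they were 29 ± 2.0 and 29.2 ± 2.59. No difference in these measures passed an adjusted p of 0.05. The read depth of the libraries is unknown, since the lists hold no read counts.

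Of the members' summits on representative transcripts 66.7% lay in the CDS, against 60.2% for all coding genes, 25.5% in the 3′UTR, against 32.7%, and 7.82% in the 5′UTR, against 7.11%. These shares were not tested. The CDS share was higher for the members than for all coding genes in each of the 10 libraries (64.1% to 68.8% in T24, 62.1% to 71.4% in T24R2). These libraries read the same genes. Of the ubiquitin and SUMO lists described below, 3 lay on the same side in CDS and 3′UTR shares. They were USP genes (64.3% and 29.0%), RNF genes (62.0% and 31.7%) and PML body and SUMO genes (66.6% and 25.4%). Ubiquitin E2 genes lay on the other side (20.5% and 69.3%). Last exons held 55.2% of the members' summits and 55.0% of those of all coding genes. In the merged regions of all lists, 111 had most of their summits in member exons, in 40 genes, and these are the member regions below. Their strongest summit lay in the CDS in 68, in the 3′UTR in 27, in the 5′UTR in 13 and in a transcript without CDS in 3. All 10 libraries called 37 of them, and 24 were called in a single library, 17 of these in T24R2, where replicate 5, the longest list, gave 10. The split of single-library regions was not computed over all exonic coding regions.

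**Figure D2:**
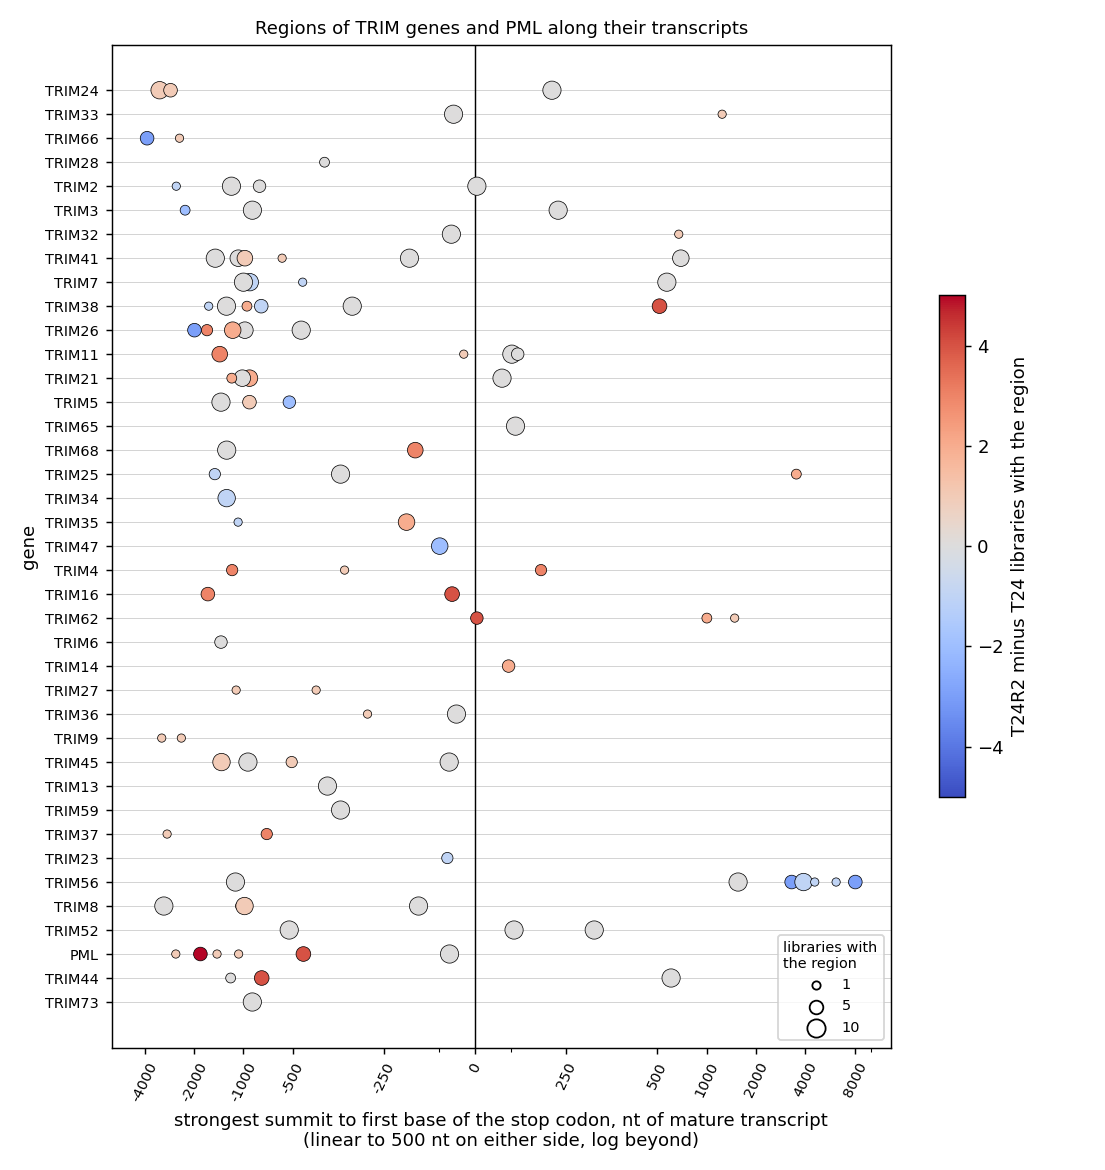
Distance in nt of mature transcript from the first base of the stop codon (horizontal axis, linear to 500 nt and log beyond) to the strongest summit of the member regions on transcripts with a CDS, by gene (vertical axis). Point size is the number of libraries with the region and colour the number of T24R2 minus T24 libraries; 12 of the 37 regions called in all 10 libraries lie within 200 nt of the stop codon, and regions over 2000 nt past it are 5 of TRIM56 and 1 of TRIM25.

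TIF1 genes are transcriptional cofactors. TRIM33, which restrains TGF-beta signalling through SMAD4, was called in all 10 libraries at chr1:114397461-114398000, with its strongest summit 59 nt before the stop codon in the last exon. Its fold enrichment, the ratio of IP over local input at the summit, averaged 7.64 ± 3.35 over the T24 libraries and 6.12 ± 1.59 over those of T24R2 (SD, n = 5 per line), and the lines overlapped. TRIM24, a nuclear receptor cofactor, had 3 regions, of which the 3′UTR region 211 nt past the stop codon was called in all 10 libraries (11.3 ± 4.06 and 9.0 ± 2.8) and the one near the start codon in 4 T24 and 5 T24R2 libraries. TRIM28 (KAP1), the corepressor of KRAB zinc finger proteins, had only a region in the 5′UTR of an alternative transcript, in 1 library of each line. TRIM66 had a coding region in exon 6 in 4 T24 libraries and 1 T24R2 library (two-sided Fisher's exact p = 0.206). Rows over the 10 libraries were uneven in this family, with TRIM24 at 24, TRIM33 at 11, TRIM66 at 9 and TRIM28 at 2.

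NHL proteins bind RNA or select substrates through a beta-propeller. TRIM2, TRIM3 and TRIM32 were each marked in all 10 libraries, and TRIM71, a stem cell protein, in none. TRIM32 was called at chr9:116697686-116699875 with a fold enrichment of 11.2 ± 3.47 in T24 and 9.48 ± 2.6 in T24R2, 65 nt before the stop codon. TRIM3 had a coding region in exon 6 (6.99 ± 1.51 and 11.3 ± 4.14) and a 3′UTR region (4.88 ± 1.89 and 7.2 ± 1.56), and in both the lines overlapped. TRIM2, a neuronal and epithelial ligase, had a coding region in exon 6 at chr4:153295431-153295998 and a second at the stop codon, chr4:153334846-153335263. The exon 6 values were 16.2, 6.52, 10.2, 11.7 and 6.91 in T24 and 6.34, 9.8, 6.72, 6.45 and 6.7 in T24R2. Those at the stop codon were 12.5, 8.38, 5.48, 10.5 and 7.43 in T24 and 20.2, 7.29, 13.1, 17.5 and 12.3 in T24R2. Within TRIM2 the exon 6 region was lower in T24R2 on average and the stop codon region higher, and in both the lines overlapped. An annotated gene without a symbol (ENSG00000288637) shares the exon 6 position on the same strand, so the peaks there cannot be assigned to TRIM2 alone.

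PML had 6 regions. One at chr15:74035097-74036390 was called in all 10 libraries, in the last exon of a shorter isoform (exon 8 of 8, 1223 nt) and 70 nt before that isoform's stop codon. Its fold enrichment was 8.11, 3.51, 9.97, 6.24 and 7.33 in T24 and 6.15, 8.21, 5.51, 5.87 and 13.4 in T24R2, so the lines overlapped. A second region, chr15:74022946-74023375, lies in exon 3 (581 nt, CDS) of the representative transcript. It was called in no T24 library and in all 5 T24R2 libraries, with values of 4.01, 4.5, 2.86, 6.54 and 6.41, at percentiles from 3.06 to 46.2 of their lists. Another, chr15:74044196-74044906, lies in the last exon of the representative transcript (exon 9 of 9, 3607 nt), 471 nt before the stop codon. It was called in T24 replicate 3 at 12.3 and in all 5 T24R2 libraries at 7.73, 11.6, 6.28, 8.48 and 8.12, so the single T24 value was above every T24R2 value. The other 3 PML regions, in exons 1, 4 and 6, were each called in 1 T24R2 library. The study reported higher PML RNA and a more methylated PML exon peak in T24R2, both also measured by targeted PCR. Its text gives no coordinates for that peak, so the peak was not matched to a region here.

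PML rows per library numbered 1, 1, 4, 1 and 2 in T24 and 5, 3, 5, 3 and 4 in T24R2. The means were 1.8 ± 1.3 and 4.0 ± 1.0 (two-sided exact permutation p = 0.0397, adjusted 0.119 over the 5 measures), and T24 replicate 3 overlapped the T24R2 range. With lists of equal length the means were 1.6 ± 0.894 and 3.0 ± 0.707 (exact permutation p = 0.0714). Leaving out single libraries gave exact permutation p-values from 0.00794, without T24 replicate 3, to 0.0794, and the p was above 0.05 without T24 replicate 1, 2, 4 or 5 or without T24R2 replicate 1, 3 or 5.

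**Figure D3:**
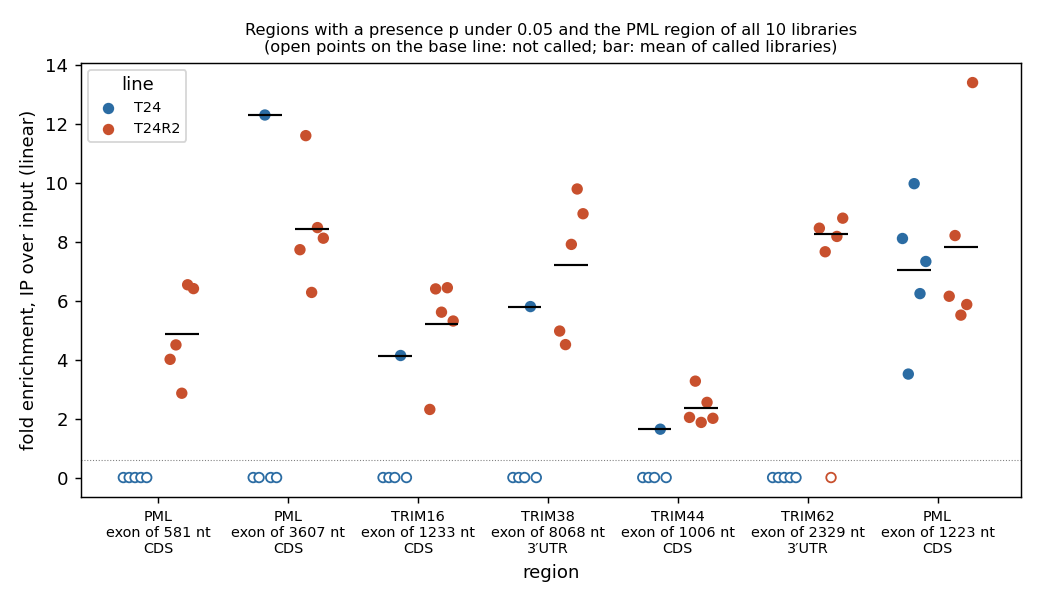
Fold enrichment (IP over input, linear axis) in each library for the 6 member regions with a Fisher p under 0.05 and, at the right, the PML region called in all 10 libraries. Filled points are called libraries of T24 (blue) and T24R2 (red), bars their mean, and open points on the base line libraries without a call: TRIM62 and the PML exon of 581 nt have no filled T24 point, while the PML region at the right spans 3.51 to 13.4.

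Whether a region was called more often in one line (5 against 5 libraries) was tested with Fisher's exact test, two-sided. An unadjusted p under 0.05 toward T24R2 was found for 6 of 111 member regions (5.41%), against 5.83% of all 24357 exonic regions of protein-coding genes. Toward T24 there was none, against 1.71% of all. Toward T24R2 the share for the members was thus close to that for coding genes. After adjustment over all 43676 regions no region of any gene passed, and the smallest adjusted p was 0.195.

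Besides the 2 PML regions (p = 0.00794 for exon 3 and p = 0.0476 for the last exon, Fisher's exact test), these were in TRIM16, TRIM38, TRIM44 and TRIM62, each at an exact p of 0.0476. TRIM62, a ligase linked to epithelial polarity, was called at chr1:33146643-33147346, whose strongest summit lay 5 nt past the first base of the stop codon, in no T24 library and in T24R2 replicates 1, 2, 4 and 5 at 8.46, 7.66, 8.18 and 8.80. No T24 library had any TRIM62 row, so the whole gene was unmarked there. TRIM16, a stress-responsive protein of the autophagy pathway, was called in its last exon (chr17:15628433-15629119) in T24 replicate 4 at 4.14 and in all T24R2 libraries at 2.31, 6.4, 5.61, 6.44 and 5.31. A second TRIM16 region, in exon 7, was called in 1 T24 and 4 T24R2 libraries.

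TRIM38, which dampens innate immune signalling, was called in its 3′UTR 516 nt past the stop codon (chr6:25983788-25984402) in T24 replicate 4 at 5.8 and in T24R2 at 4.97, 4.51, 7.91, 9.79 and 8.95. Its coding regions at chr6:25966456-25966898 and chr6:25983085-25983680 were called in all 10 libraries. TRIM44, which lacks a RING finger, was called in its first exon (chr11:35663207-35663609) in T24 replicate 4 at 1.64 and in T24R2 at 2.04, 3.27, 1.87, 2.55 and 2.01. Those TRIM44 values are among the lowest rows of the lists that hold them (percentiles of 0.0109 to 3.14). With lists of equal length TRIM44 was called in 0 and 2 libraries and TRIM38 in 1 and 4, and neither kept a p under 0.05. The regions of PML, TRIM16 and TRIM62 kept theirs, with 0 and 4 libraries for PML exon 3, 1 and 5 for the PML last exon, 0 and 4 for TRIM16 and 0 and 4 for TRIM62.

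Equal lists brought 2 member regions past the same p toward T24, where none stood before, against 2.16% of all exonic coding regions, and left 4 toward T24R2, against 2.64%. The 2 were the exon 6 region of TRIM66 and a distal 3′UTR region of TRIM56, each with 4 T24 libraries and no T24R2 library. TRIM56, a ligase of the antiviral STING pathway, had 7 regions, as many as TRIM41 and more than any other member, and 8.62% of all member rows. It was called at chr7:101086889-101090189, a region of 3301 bp whose strongest summit lies in the CDS part of its last exon, at 16.3 ± 3.65 in T24 and 21.2 ± 8.55 in T24R2, with a mean percentile of 95.0. Its 3′UTR region at chr7:101090931-101092529 was also called in all 10 libraries. Of the 5 TRIM56 regions over 2000 nt past the stop codon, each was called in more T24 than T24R2 libraries (4 and 1, 5 and 4, 1 and 0, 1 and 0, and 4 and 1). None of these had a Fisher p under 0.05 in the full lists, and they share a transcript, so they are not independent. The TRIM25 region over 2000 nt past its stop codon was called in 0 T24 and 2 T24R2 libraries. Of all 111 member regions, 20 were called in more T24 and 45 in more T24R2 libraries, whose lists are longer. This split was not computed over all exonic coding regions. The share among distal 3′UTR regions of other genes was not computed.

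Other strongly enriched regions belonged to genes with different tasks. TRIM45, a repressor of MAPK signalling, was called in exon 2 at chr1:117118036-117118835 with 20.9, 20.4, 19.0, 15.8 and 14.9 in T24 and 21.4, 20.6, 17.7, 33.8 and 14.9 in T24R2. Its mean percentile was 97.1, and the lowest library stood at 93.1. Below TRIM45 and TRIM56, TRIM36, a COS box protein, stood at 85.0 (51 nt before the stop codon). TRIM7 stood at 84.6 (3′UTR), TRIM26 at 83.6, TRIM41 at 82.9, TRIM59 at 75.5 and the TRIM2 stop codon region at 73.6. Over the 37 shared regions, in 26 genes, the mean percentile ran from 12, for TRIM44, to 97.1, with a median of 61.4.

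The neighbours TRIM7, TRIM41 and TRIM52 lie within 67.2 kb of chromosome 5 and were each marked in all 10 libraries. They held 122 of the 731 member rows (16.7%), with 34 for TRIM7, 55 for TRIM41 and 33 for TRIM52. TRIM41, which acts on protein kinase C, was called in all 10 libraries in its first exon, in its last exon 180 nt before the stop codon and in an exon of a noncoding transcript, in 8 in its 96-nt exon 2 and its 3′UTR, and in 7 in its 231-nt exon 3. On chromosome 11 the antiviral TRIM5 was marked in all 10 libraries, TRIM34 in 9 and TRIM6 in 4.

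The enrichment of the 37 shared regions was compared with limma on log2 fold enrichment, centred on each library's median, and adjusted over all 9577 regions called in all 10 libraries. No member region passed an adjusted p of 0.05 in either direction, against 0.480% of all regions toward T24R2 and 0.313% toward T24. At an unadjusted p under 0.05 there were 4 of 37, against 14.0% of all. An exact permutation test gave 5 at an unadjusted p under 0.05, against 12.9% of all. After adjustment that test, whose smallest possible p is 0.00794, called none of all 9577 regions, so its lack of member calls is not informative. The log2 difference, T24R2 minus T24, ran from -0.82 to 0.65 with a median of 0.05 (0.02 over all regions), was above 0 in 19 and below 0 in 18, and lay within 0.5 of 0 in 27. The 4 regions with an unadjusted limma p under 0.05 were of TRIM52, TRIM8, TRIM5 and TRIM2, named here after their values were seen.

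TRIM52, a RING protein that lacks a B30.2 end, had the largest difference, at chr5:181257068-181257469, 107 nt past the stop codon of an alternative transcript. Fold enrichment was 13.1, 13.3, 14, 9.76 and 11.4 in T24 and 5.81, 6.85, 8.22, 8.13 and 8.4 in T24R2, so every T24 library was above every T24R2 library. This held for 0.888% of all shared regions on the fold scale and, as for TRIM52, after centring for 1.65%. The log2 difference was -0.82 ± 0.24 (SE, limma adjusted p = 0.107). The other 2 shared TRIM52 regions had log2 differences of 0.27 and 0.30, on the opposite side of 0. A second annotated gene (CTC-338M12.4) overlaps there, and the peaks carry no strand.

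TRIM8, which acts in p53 and cytokine signalling, had a last-exon region 155 nt before the stop codon (chr10:102656693-102657736) at 3.9, 2.97, 5.8, 4.97 and 3.29 in T24 and 6.06, 7.02, 4.98, 7.87 and 8.78 in T24R2. The lines overlapped only through 1 library of each (log2 difference 0.65 ± 0.24 SE, limma adjusted p = 0.201). TRIM5, the restriction factor of retroviral capsids, was at 4.73, 4.45, 3.88, 3.02 and 3.87 in T24 and 6.88, 5.27, 7.04, 5.15 and 8.62 in T24R2 in its exon 2 (0.62 ± 0.26 SE, limma adjusted p = 0.267). Its fold values did not overlap, which held for 2.76% of all shared regions, but they did once centred on each library's median, where 2.45% of all had every T24R2 library above every T24 library. The TRIM2 exon 6 region differed by -0.55 ± 0.25 (SE, limma adjusted p = 0.335), and the PML shared region by 0.05 ± 0.28 (SE, limma adjusted p = 0.957).

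**Figure D4:**
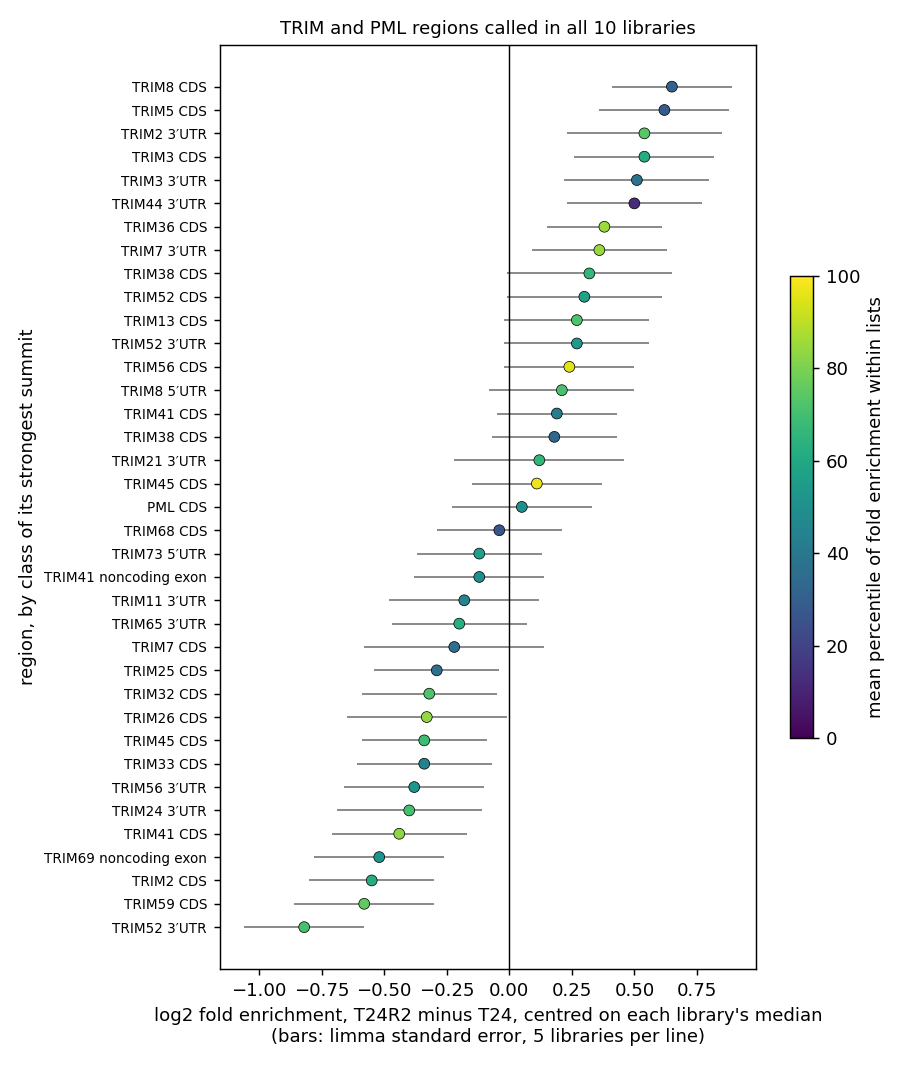
Log2 fold enrichment, T24R2 minus T24, with its limma standard error (bars) for the 37 member regions called in all 10 libraries (vertical axis, by gene and class), coloured by mean percentile within the lists. Values run from -0.82 for TRIM52 to 0.65 for TRIM8 with 19 above 0, and the regions with the highest percentiles, TRIM45 exon 2 and TRIM56, stand at 0.11 and 0.24.

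Many TRIM genes share an exon layout, and the most frequent lengths of internal coding exons in the marked members were 96 nt (26 exons) and 231 nt (15 exons). These lengths were looked at after positions had been seen and are given as a description. A summit lay in 7 of 26 internal 96-nt exons of marked members (26.9%), in TRIM7, TRIM8, TRIM21, TRIM26, TRIM27, TRIM38 and TRIM41, and in 39 of 1000 such exons of all marked coding genes (3.90%). For 231 nt the counts were 6 of 15 (40.0%), in TRIM5, TRIM7, TRIM21, TRIM26, TRIM38 and TRIM41, and 25 of 145 (17.2%). The members are part of both totals. Coding exons of at least 400 nt held a summit in 63.6% of the members' and 56.3% of all, those of 150 nt to under 400 nt in 12.4% and 12.9%, and those under 150 nt in 7.36% and 4.32%. A summit in any 1 library was enough for these counts. All 10 libraries called 1 of the 7 member regions in 96-nt exons and 0 of the 6 in 231-nt exons. The 96-nt exon regions of TRIM8 and TRIM27 were called only in T24R2 replicate 5, the longest list, at percentiles of 4.31 and 4.1. The regions in the 96-nt exons had a median mean percentile of 31.6 and those in the 231-nt exons of 27.1, and none of them had a Fisher p under 0.05.

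**Figure D5:**
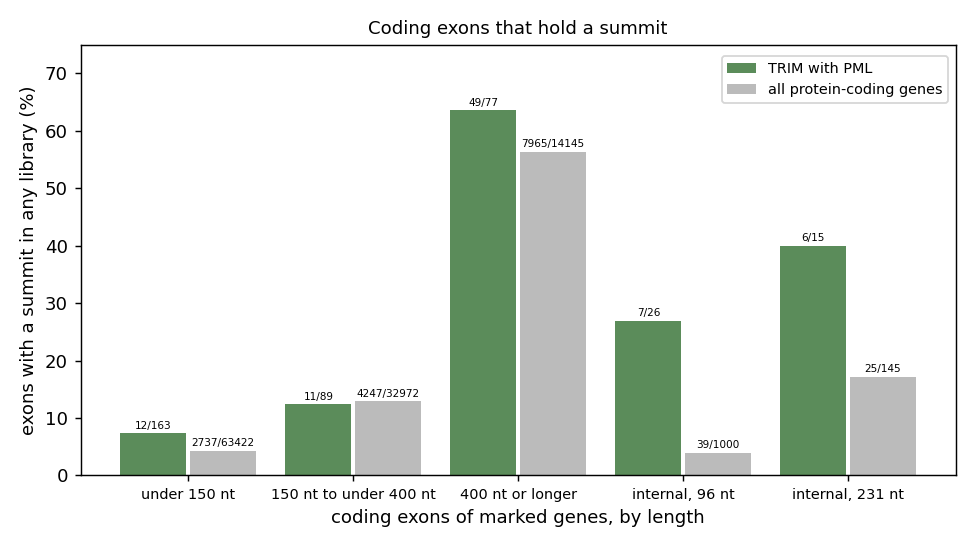
Percent of coding exons of marked genes with a summit in any library, for TRIM genes with PML and for all protein-coding genes, by exon length. Counts of exons stand above the bars: 7 of 26 internal exons of 96 nt and 6 of 15 of 231 nt held one in the members, against 39 of 1000 and 25 of 145 overall.

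Partners of these proteins were taken from lists of known members of each pathway. Of 28 genes of PML nuclear bodies and the SUMO pathway, 25 were marked, 15 of them in all 10 libraries, among them ATRX, HIPK2, SENP5, BLM and MORC3. Toward T24R2, 7 of their 76 regions had a Fisher p under 0.05 (9.21%, against 5.83% of all) and toward T24 none. These 7 regions were in RNF4, which ubiquitinates SUMO-modified PML, in the SUMO ligases PIAS1, PIAS2 and PIAS4, in the SUMO proteases SENP3 and SENP6, and in the acetyltransferase CREBBP. Those of RNF4 (1 T24 and 5 T24R2 libraries), PIAS2, PIAS4 and CREBBP (each 0 and 4) had a Fisher's exact p of 0.0476. Partner genes were not recomputed with lists of equal length, where the share of all regions toward T24R2 was 2.64%. Of 14 ubiquitin E2 genes that work with RING ligases, 9 were marked and 2 of 19 regions were called more often in T24R2 (10.5%, against 5.83% of all), in UBE2D3 and UBE2L6, each in no T24 and 5 T24R2 libraries. In the enrichment fit none of the 22 shared regions of the PML list and neither of the 2 of the E2 list passed an adjusted p of 0.05 in limma, with 1 and 0 at an unadjusted p under 0.05. Among other ubiquitin families, RNF genes had 60.0% of 85 marked and 8 of 142 regions called toward T24R2 (5.63%), and USP genes 53.8% of 78 marked and 2 of 108 regions (1.85%).

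Of 17 urothelial and bladder cancer line markers, 7 had a row (KRT7, KRT18, UPK1A, GATA3, PPARG, FOXA1 and VIM). KRT5, KRT8, KRT19, KRT20, UPK1B, UPK2, UPK3A, TP63, EPCAM and CDH1 had none in any library, which says nothing of their expression. GATA3, a luminal urothelial factor, was marked in 5 T24 libraries and no T24R2 library. Of the 14 marker regions 2 were called more often in T24 (14.3%, against 1.71% of all) and none in T24R2, against 5.83%. The 2 were a region of GATA3 and a region of VIM, a mesenchymal filament, each called in 5 and 0 libraries. As a gene VIM was marked in 5 T24 and 4 T24R2 libraries. In enrichment 1 of the 2 marker regions called in all 10 libraries passed the adjusted p in limma toward T24R2, against 0.480% of all such regions. It was in FOXA1, another luminal factor. The part of such differences between the lines in the TRIM and PML results was not tested.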

How the data were processed

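MeRIP-seq peak lists of 10 IP libraries (5 T24, 5 T24R2) were used, and the 10 inputs have no list here. According to the labels and methods, STAR 2.7.0 aligned reads to hg38, SAMtools 1.10 removed duplicates and multiply mapped reads, and MACS2 (3.0.0a6 in the submitters' processing notes) called peaks per library over input. The deposited fold enrichment is a ratio of IP over local input, and the deposited −log10 q-values, at least 2.0 in every list, served only to filter and to order rows in the alternatives. Depth is unknown. The members and lists were chosen with earlier results of these data known. The deposited merged regions equal the merge of the 10 lists. Summits were placed on GENCODE 44 exons, on the representative (GENCODE's canonical) transcript where it holds the summit, otherwise on the member transcript with the longest CDS. A member region has over 50% of its summits in member exons. The percentile is the rank of fold enrichment within a library's own list, and the highest row stands for a region.

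Presence was tested by Fisher's exact test (scipy 1.17.1) and enrichment by limma 3.58.1 (R 4.3.3), Benjamini-Hochberg adjusted over all merged regions and over all regions called in all 10 libraries, respectively, and tested on simulated data. Named genes were PML, genes with a presence p under 0.05 or an adjusted enrichment p under 0.05, the 8 highest mean percentiles among regions called in all 10 libraries, and the TIF1 and NHL families; others were named after their values were seen where stated. Alternatives were a stricter q, lists of equal length, coverage of the region, other scalings, an exact permutation test, a replicate block, and each library omitted in turn. No protein sequence was used here.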

Additional observations from a re-analysis of the deposited data

Results flagged for a closer look

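Among 42 groups of 5 libraries of 1 line that were examined for a value far from the rest, 2 stood apart by Dixon's ratio (above 0.71), and chance gives about 1 in 20. T24R2 replicate 5 held 99 member rows where the other T24R2 libraries held 72 to 77 (ratio 0.815). It is the longest list, and without it the difference in member rows between the lines was 5.9 instead of 11. In the TRIM2 exon 6 region, T24R2 replicate 2 had a fold enrichment of 9.8 where the other T24R2 libraries lay between 6.34 and 6.72 (ratio 0.89).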

How the results depend on the processing

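Of 419 recomputed values, 394 held (direction and call unchanged, or a count within 1.5 times), 12 fell short of p 0.05, 1 passed it, 8 counts moved and 4 changed sign. Member regions called more often in T24R2 numbered 6 to 9 of 111 when single libraries were left out, and 4 to 7 under the other settings. The share of all exonic coding regions moved too, at 6.18% to 8.22% and 2.64% to 7.84%. Those called more often in T24 were 0 in the full lists and 0 to 3 without single libraries (3 without T24 replicate 2). They were 2 with lists of equal length, which keep fewer rows, and 4 when 4 or 5 libraries of T24 and 0 or 1 of T24R2 were asked for. In the same order the share of all exonic coding regions was 1.71%, 1.81% to 2.32%, 2.16% and 2.1%. With ranks among shared regions 1 member, the TRIM52 region, passed toward T24 (limma adjusted p = 0.0435), among 48 of all 9577 regions. The PML shared region stood at -0.326 rank points, and the cause was not tested. Without single libraries the log2 difference of the PML shared region ran from -0.137 (T24 replicate 2) through -0.135 (T24R2 replicate 5) to 0.171, and that of TRIM45 exon 2 from -0.0443 (T24R2 replicate 4) to 0.259. In limma the replicate block gave 0 member calls in either direction, and 31 and 19 calls over all regions against 46 and 30. No paired test of presence was run. Same-numbered libraries share only a number (correlations of deviations from -0.0419 to 0.121). The percentile scale moved the median of all shared regions by 4.84 points and called no member. With 5 against 5 libraries the smallest Fisher p is 0.00794. From these lists alone, without reads, transcript level and methylation cannot be told apart, and peaks below the authors' threshold are not seen.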

Other observations

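In 5 merged regions members held a summit but not most of the summits, and these were left out of the counts above. They lie at TRIM66, in an exon of a noncoding transcript (5 T24 and 4 T24R2 libraries), and at TRIM4, TRIM56, TRIM65 and TRIM74 (each in all 10 libraries). TRIM73 and TRIM74 are near-identical copies on chromosome 7 whose first exons also overlap other annotated genes, so their peaks are uncertain. The TRIM73 region was called in all 10 libraries, although its summit lay in a TRIM73 exon in 9.

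A few further members, named after their values were seen, have known roles in antiviral signalling. TRIM25, which activates the RNA sensor RIG-I, was called in its last exon at chr17:56891661-56892257 in all 10 libraries (log2 difference -0.29 ± 0.25 SE, limma adjusted p = 0.665). TRIM21, the intracellular antibody receptor, was called in its 3′UTR 74 nt past the stop codon in all 10 libraries (log2 difference 0.12 ± 0.34 SE, limma adjusted p = 0.915). The TRIM68 last-exon region and the TRIM11 region near the start codon were each called in 2 libraries of T24 and in all 5 of T24R2 (Fisher's exact p = 0.167 for each). TRIM4 had a 3′UTR region of an alternative transcript and a region in exon 1, each called in 3 T24R2 libraries and no T24 library.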
